A study of Mus musculus with 31 samples.

Results

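The response of AKR lung to lipopolysaccharide (LPS, a cell wall component of Gram-negative bacteria) after breathing room air is described here from 6 of the 31 arrays of a mouse lung series. The arrays were chosen by their labels: 3 AKR lungs given LPS in saline through the trachea after room air, and 3 AKR lungs given normal saline the same way after room air. AKR is an inbred strain used in studies of smoke-induced airspace enlargement and known for thymic lymphoma in older animals. All 6 mice were males with a labelled age of 6 weeks and all had an intratracheal instillation. Their titles give 3 weeks of room air, whereas the series' design text gives 6 weeks of exposure to instilled mice, so the length of exposure is uncertain. The dose of LPS and the time between instillation and dissection are not given in the sources used here. Each array measured RNA of homogenised lung tissue, in which fewer cells of a type and less RNA per cell cannot be told apart. The titles call the arrays biological replicates; p-values measure the spread between these 3 and 3 samples only, and the number of arrays limits the precision of every value.

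LPS is carried by LPS-binding protein to CD14 and is recognised by TLR4 together with MD-2 on macrophages, epithelium and other cells. Signals through MYD88 activate NF-kB and MAP kinases and induce cytokines, neutrophil chemokines and their own inhibitors; signals through TRIF induce type I interferon and its target genes. In the lung these events bring neutrophils and then monocytes from blood to airspaces, and natural killer and T cells that make interferon gamma can add a further set of induced genes.

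Values are log2 intensities per gene, and a difference of 1 is a doubling of intensity. Of 19938 genes with a named probe set, 13794 passed a filter on dim genes (a level over the 40th percentile of the array on 3 or more of the 6) and were tested with limma (two-sided, Benjamini-Hochberg adjusted p under 0.05). Of these, 1464 passed (10.6%), 950 of them higher with LPS (6.89%) and 514 lower (3.73%). The median log2 fold change of all tested genes was -0.04. Each log2 fold change of LPS over saline is followed by its standard error (±; n = 3 and 3). The changes were uneven in size: 538 genes rose and 67 fell by more than 1 log2 unit, and 207 rose and 1 fell by more than 2. Among the 950 genes that rose, 101 had no saline array above the percentile of the filter, so they could be tested only because they were high with LPS. Among the 514 that fell, 28 had no LPS array above it and could be tested only because they were high with saline. The genes are described by 52 lists with 886 genes, of which 739 were tested, 268 rose and 37 fell. Each list count below is to be read beside the shares of all tested genes, 6.89% higher and 3.73% lower. Of those 268, 35 were tested only because they were high with LPS. These included Ccl22, Ccl4, Ccr1, Ccr9, Cd28, Clec4d, Clec4e, Csf3, Cxcl11, Cxcl3, Cxcl5, Fosl1, Gzmb, Ido1, Ifng, Il12b, Il1r2 and Il2ra. The others were Il6, Klrd1, Ly6g, Mefv, Mmp12, Mmp8, Mx1, Mx2, Ngp, Nlrp3, Osm, Tlr1, Tlr6, Tnip3, Trem1, Txk and Xcl1. Without saline replicate 1 the total was 488, without LPS replicate 1 it was 533, without LPS replicate 2 it was 780 and without saline replicate 2 it was 830. The filter asked for 3 arrays in these fits too. Genes above it on no saline array, such as Cxcl3, Cxcl5, Il6, Ifng, Ccl4 and Gzmb, were therefore not tested without an LPS array. Those above it on no LPS array were not tested without a saline array. Counts with an array left out, also those of the lists below, lack such genes.

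The 3 arrays of each treatment correlated at 0.966 to 0.979 with LPS and at 0.955 to 0.984 with saline, and arrays of different treatments at 0.859 to 0.935. Differences within the groups had a pattern of their own. LPS replicate 3 was the lowest of the LPS arrays in 752 of the 950 genes that rose (79.2%). Saline replicate 3 was the highest of the saline arrays in 12 of 12 heart muscle genes, 20 of 20 ciliated cell genes and 17 of 18 airway secretory genes, and the lowest in 19 of 20 endothelial genes. LPS replicate 2 was the lowest LPS array in 12, 20 and 16 of those heart, ciliated and secretory genes. Saline replicate 2 was the lowest saline array in 12, 19 and 16 of them. The summed linear intensity of the 13 heart muscle genes with a probe set was 29320, 7621 and 21040 with LPS, against 35960, 14850 and 43780 with saline. That of the 18 airway secretory genes was 97740, 59140 and 83630 with LPS, against 81450, 64000 and 106000 with saline. The groups overlapped in both sums, and none of the 12 tested members of the heart muscle list passed (median -0.77). Outside that list Myh7, a myosin heavy chain of heart and slow muscle named after its values were seen, read 8.40, 8.13 and 8.31 with LPS, against 9.52, 9.18 and 9.34 with saline and fell (-1.07 ± 0.12, limma adjusted p = 0.0038), with no overlap between the groups. Without saline replicate 3 and LPS replicate 2, a choice made after seeing the data, 624 genes rose and 735 fell, and 824 of the 1464 genes were among them. Saline replicate 2, also low in these lists, stayed in. Of 6410 tested probe sets with no single gene symbol 144 passed (2.25%).

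**Figure D1:**
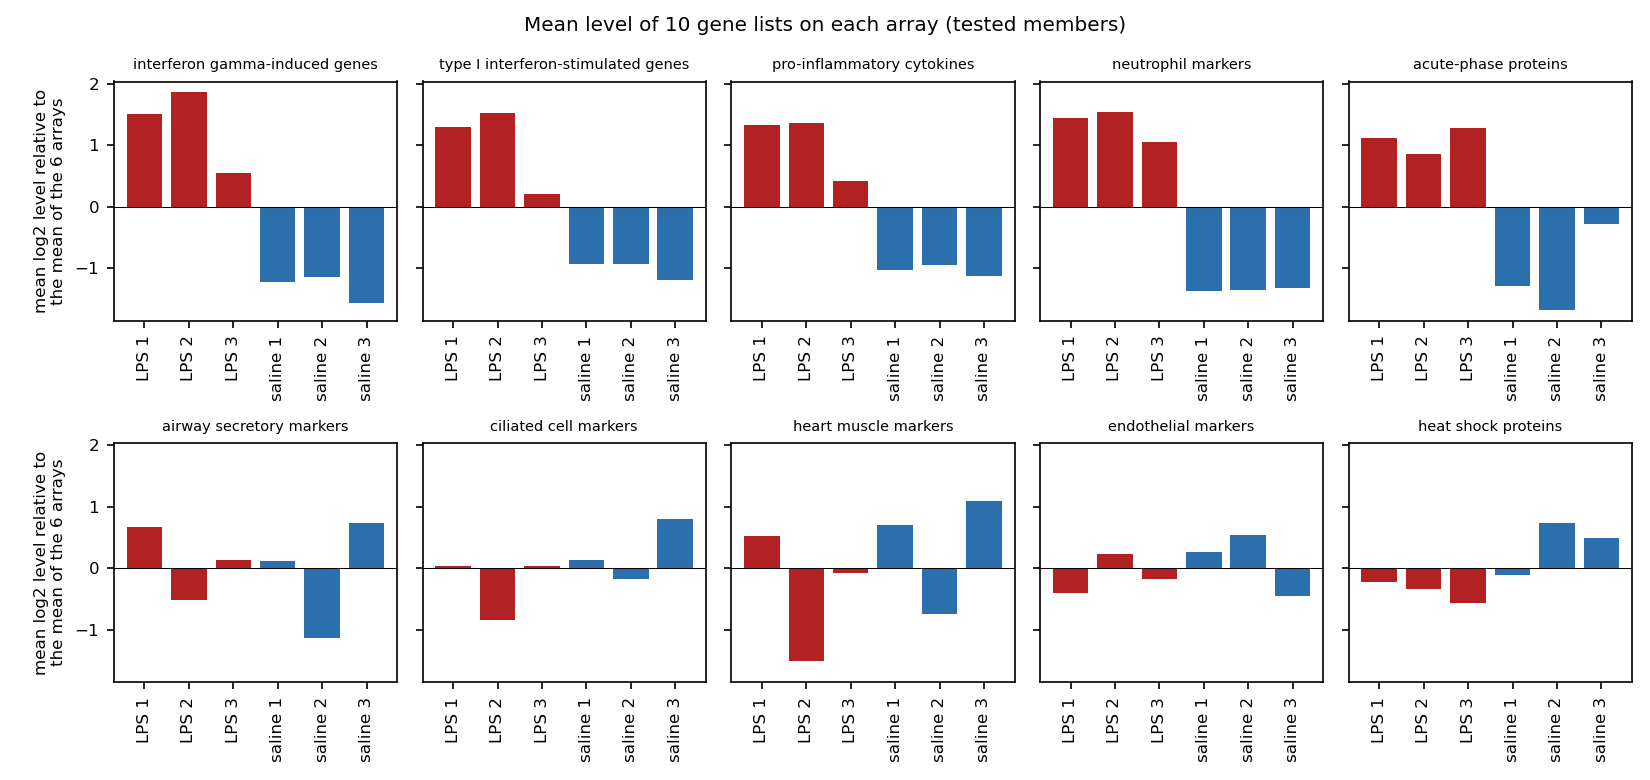
Mean log2 level of the tested members of 10 gene lists on each array, relative to the mean of the 6 arrays (red, LPS replicates 1 to 3; blue, saline replicates 1 to 3). The interferon lists are lower on LPS replicate 3 than on the other LPS arrays, the acute-phase list is not, and the airway, ciliated and heart lists are low on LPS replicate 2 and high on saline replicate 3. Among the saline arrays these 3 lists are lowest on saline replicate 2, where the airway list is the lowest of all 6 arrays.

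The genes that rose most encode an enzyme of macrophage metabolism, chemokines, a lectin receptor and an acute-phase protein. Acod1, which makes itaconate from a citric acid cycle intermediate, read 13.36, 13.20 and 11.72 with LPS, against 5.99, 6.35 and 6.62 with saline. Its rise of 6.44 ± 0.43 log2 units, 86.7-fold, was the largest measured (adjusted p = 0.000523). The unnamed transcript BC018473 read 12.56, 12.54 and 11.02 with LPS, against 5.79, 5.48 and 6.15 with saline, with LPS replicate 3 again below the other LPS arrays. Clec4e, the macrophage lectin Mincle, read 11.32, 11.36 and 10.14 with LPS, against 5.38, 5.45 and 5.76 with saline and rose by 5.41 ± 0.33. Il1f9, which encodes the cytokine IL-36 gamma, read 11.36, 11.09 and 10.46 with LPS, against 5.86, 6.12 and 6.19 with saline and rose by 4.91 ± 0.23, with little spread among the saline arrays. Ly6i, a GPI-anchored surface protein of myeloid cells, read 11.93, 12.09 and 12.07 with LPS, against 6.75, 6.69 and 8.30 with saline, and here saline replicate 3 was the highest saline array. BC023105 read 8.80, 9.69 and 7.75 with LPS, against 3.91, 3.38 and 3.24 with saline (5.24 ± 0.46), with saline values below the 25th percentile of each array's probe sets. In all 12 of the largest rises every LPS array stood above every saline array, a separation that 15.6% of all tested genes had. These 12 were picked by the size of their difference on the same arrays, so their separation adds no support. BC018473, Clec4e, BC023105, Il6 and Il1f9 had no saline array above the percentile of the filter. They were tested only because they were high with LPS.

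**Figure D2:**
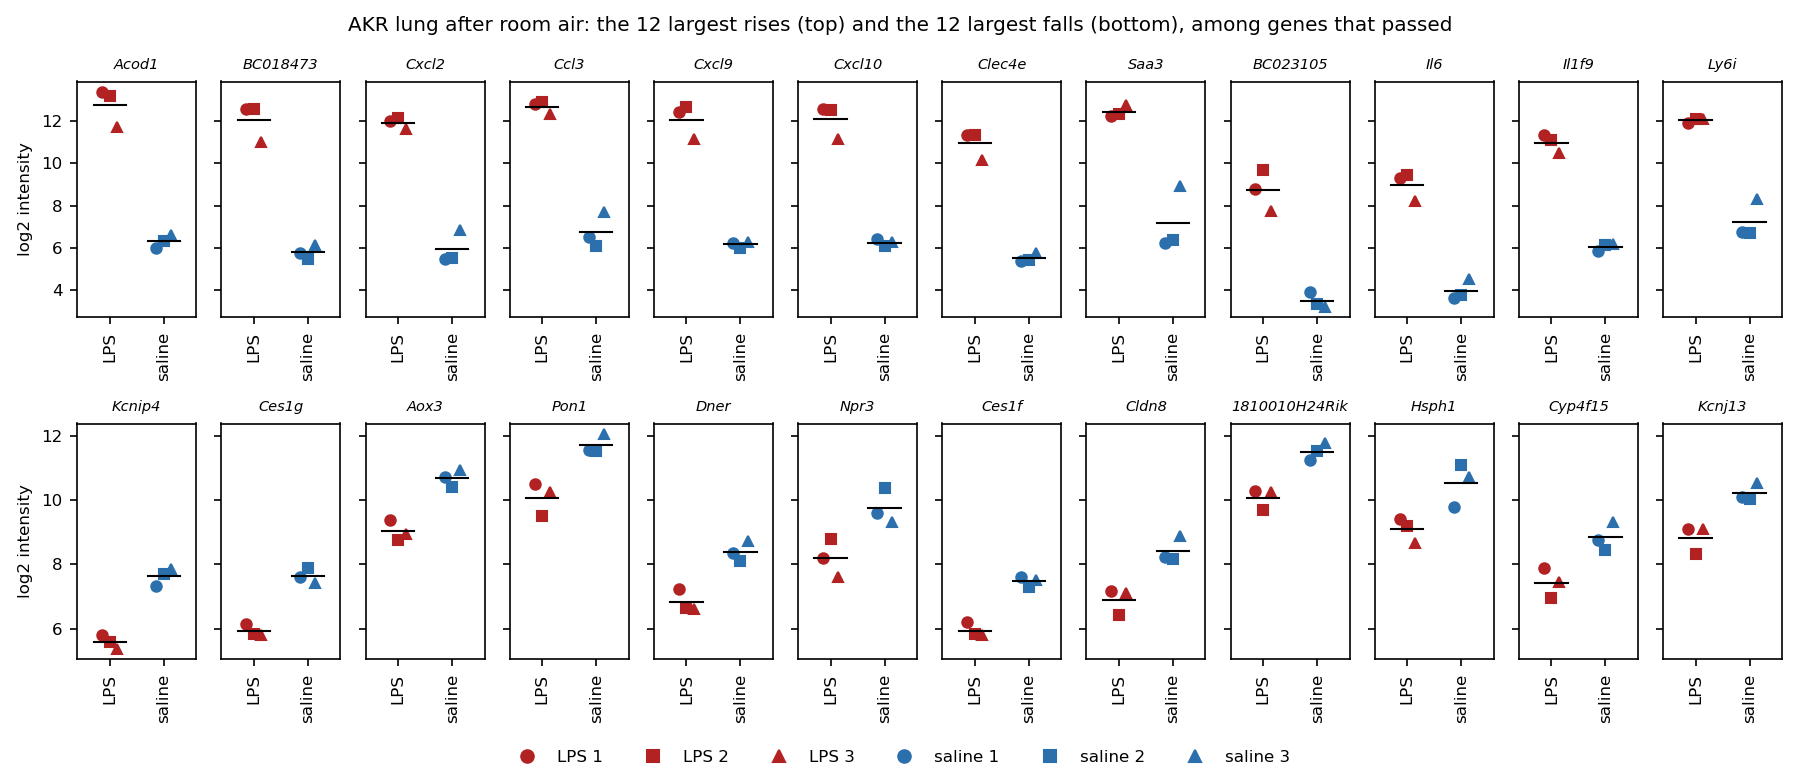
log2 intensity on each array for the 12 genes with the largest rises (upper row) and the 12 with the largest falls (lower row) among genes that passed, with LPS (red) left of saline (blue), a symbol per replicate and a bar at the group mean. No gene shown has overlapping groups; LPS replicate 3 (triangle) is the lowest LPS array for Acod1, BC018473 and Cxcl10, and saline replicate 3 the highest saline array for Saa3.

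Receptors and adaptors of LPS sensing rose around a receptor that did not pass. Of 24 tested genes of this list 17 rose and none fell (median 1.34), against 6.89% of all genes. Tlr4, the LPS receptor, read 8.43, 8.63 and 8.23 with LPS, against 8.14, 8.05 and 8.18 with saline, a change of 0.30 ± 0.12 that did not pass (adjusted p = 0.163). Cd14, its co-receptor, read 11.42, 11.19 and 11.01 with LPS, against 7.54, 7.23 and 8.38 with saline and rose by 3.49 ± 0.29. Ly96, which encodes MD-2, rose by 1.37 ± 0.33, Lbp, the LPS-binding protein, by 1.07 ± 0.25 and the adaptor Myd88 by 1.24 ± 0.16; these and Tlr4 were chosen after their values were seen. Among other pattern receptors, Tlr2, for bacterial lipoproteins, rose by 2.502 ± 0.24, Tlr13, for bacterial ribosomal RNA, by 2.502 ± 0.25, and the lectins Clec4d and Clec4n by 4.29 ± 0.19 and 2.43 ± 0.16. Tlr2 read 10.64, 10.64 and 9.77 with LPS, against 7.96, 7.91 and 7.69 with saline, without overlap of the groups. The count of rises in this list was 7 without LPS replicate 1 and 13 without LPS replicate 3.

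NF-kB feedback genes rose in 15 of 18 cases and none fell (median 1.62). Nfkbia, which encodes the inhibitor that holds NF-kB in the cytoplasm, read 12.38, 12.30 and 11.77 with LPS, against 10.13, 10.70 and 10.18 with saline and rose by 1.81 ± 0.22. Tnfaip3, the ubiquitin-editing enzyme A20 that ends NF-kB signalling, read 10.97, 11.03 and 9.99 with LPS, against 7.14, 7.64 and 7.41 with saline and rose by 3.27 ± 0.29. Tnfaip2 rose by 3.45 ± 0.19, Nfkbie, another inhibitor, by 2.48 ± 0.21, the A20-binding protein Tnip3 by 3.21 ± 0.30, and the RNase gene Zc3h12a, which destroys cytokine mRNAs, by 2.02 ± 0.11. The subunit gene Rela, chosen after its values were seen, changed by 0.27 ± 0.09 and did not pass. The count of rises was 12 without LPS replicate 1 or LPS replicate 2 and 15 without LPS replicate 3 or saline replicate 3. Among STAT3 and MAP kinase feedback genes 14 of 20 rose (median 0.82), led by the kinase Pim1 (2.33 ± 0.24) and the cytokine signalling inhibitors Socs3 (2.05 ± 0.33) and Socs1 (1.99 ± 0.43). Socs3 read 11.44, 10.91 and 10.38 with LPS, against 8.36, 8.84 and 9.37 with saline. Saline replicate 3 was the highest saline array and LPS replicate 3 the lowest LPS array, and the groups did not overlap. A second probe set of Socs3 gave a log2 fold change of 0.62. Dusp1, a MAP kinase phosphatase, read 11.36, 11.53 and 11.49 with LPS, against 10.74, 11.98 and 10.50 with saline with overlapping groups and did not pass. The count of this list was 4 without saline replicate 1 and 13 without LPS replicate 3.

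The promoters of Cxcl2, which encodes a neutrophil chemokine, and Nfkbia are shown because both genes rose and both hold letters of the NF-kB motif. They run from 250 bases before to 50 bases after the transcription start, in the RefSeq annotation of GRCm38.p6, a C57BL/6J reference and not the AKR genome. The stretch of Cxcl2 is chr5:90903649-90903948 on the plus strand and that of Nfkbia chr12:55492598-55492897 on the minus strand. Capitals mark matches on either strand to the NF-kB motif, searched as GGG, any 3 bases and TTCC; in Cxcl2 matches on opposite strands begin 97 and 96 bases before the start and overlap, and a further one begins 78 bases before it.
Cxcl2: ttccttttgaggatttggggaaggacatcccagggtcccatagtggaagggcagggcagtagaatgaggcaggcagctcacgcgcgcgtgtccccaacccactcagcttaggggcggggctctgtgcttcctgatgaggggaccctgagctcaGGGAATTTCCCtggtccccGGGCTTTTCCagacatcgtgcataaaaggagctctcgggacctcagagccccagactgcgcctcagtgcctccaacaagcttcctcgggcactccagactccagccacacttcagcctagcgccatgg
Nfkbia: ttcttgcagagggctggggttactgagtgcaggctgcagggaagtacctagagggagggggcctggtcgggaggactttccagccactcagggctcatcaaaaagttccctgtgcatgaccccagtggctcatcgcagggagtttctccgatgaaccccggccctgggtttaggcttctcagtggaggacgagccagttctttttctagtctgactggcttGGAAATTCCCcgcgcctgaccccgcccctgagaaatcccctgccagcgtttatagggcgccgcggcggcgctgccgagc
In Nfkbia the match begins 29 bases before the start. The motif occurs in 5.56% of 32851 promoters of the same length, where each listed start of a gene counts separately. By gene, at any listed start, it occurs in 12.5% of the 734 risen genes with a promoter and in 5.57% of the 413 fallen ones, against 7.13% of the 10970 tested genes with a promoter. A match is a description of these letters, not a bound site.

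Pro-inflammatory cytokine genes rose in 15 of 18 cases, with none lower (median 1.71). Il6, the inducer of acute-phase genes, read 9.29, 9.45 and 8.22 with LPS, against 3.65, 3.78 and 4.52 with saline and rose by 5.003 ± 0.37, from below the 25th percentile of each saline array. Il1b, secreted after cleavage by caspase 1, read 12.34, 12.10 and 11.56 with LPS, against 7.15, 7.501 and 7.65 with saline and rose by 4.57 ± 0.22, and Il1a by 4.36 ± 0.33. Tnf, the early macrophage cytokine, read 10.91, 10.71 and 9.35 with LPS, against 6.13, 6.18 and 6.49 with saline and rose by 4.05 ± 0.39. Ifng, the product of natural killer and T cells that activates macrophages, read 11.16, 10.70 and 6.96 with LPS, against 5.73, 5.35 and 5.35 with saline. LPS replicates 1 and 2 stood far above LPS replicate 3, which was itself above all saline arrays, and the rise of 4.13 ± 1.02 barely passed (adjusted p = 0.0487). Il12b, a subunit of the cytokines that drive interferon gamma, had the same form and read 8.12, 8.13 and 6.31 with LPS, against 5.53, 5.48 and 5.43 with saline (2.04 ± 0.47). LPS replicate 3 was the lowest LPS array in 17 of the 18 genes; the exception, Csf2, a growth factor for myeloid cells named after its values were seen, read 7.69, 8.29 and 8.53 with LPS, against 6.48, 6.43 and 6.22 with saline. The count of rises was 8 without LPS replicate 1 and 11 without saline replicate 2.

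Genes of cytokine antagonists and receptors rose with them, 14 of 16 (median 1.97). Il1rn, the antagonist of the IL-1 receptor, read 11.07, 11.17 and 10.36 with LPS, against 6.37, 6.56 and 6.67 with saline and rose by 4.34 ± 0.22. Il1r2, the IL-1 decoy receptor, rose by 3.07 ± 0.21, Tnfrsf1b, the second TNF receptor, by 2.54 ± 0.23, the costimulatory receptor Tnfrsf9 by 3.06 ± 0.18, and the growth factor receptors Csf3r and Csf2rb by 3.13 ± 0.25 and 2.51 ± 0.25. Csf3r, which serves neutrophil growth, read 10.66, 10.73 and 10.60 with LPS, against 7.33, 8.13 and 7.13 with saline, and the LPS arrays differed by little.

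LPS replicate 3 was not the lowest LPS array for most neutrophil chemokines, but for 2 of 8. Of these 8 tested genes 5 rose (median 3.29). Cxcl2 read 12.02, 12.14 and 11.61 with LPS, against 5.47, 5.52 and 6.85 with saline and rose by 5.98 ± 0.37 (63-fold). Cxcl5, an epithelial chemokine, read 9.54, 9.28 and 9.78 with LPS, against 5.19, 5.26 and 5.92 with saline (4.08 ± 0.22). Cxcl1 and Cxcl3 rose by 3.03 ± 0.20 and 3.55 ± 0.15, and their receptor Cxcr2, carried by neutrophils, read 10.58, 11.07 and 10.67 with LPS, against 7.08, 7.17 and 7.004 with saline (3.69 ± 0.14). Ppbp, a platelet chemokine, changed by -0.23 ± 0.31 and did not pass. The mean of the list, relative to the 6 arrays, was 1.16, 1.28 and 1.32 on the LPS arrays, against -1.47, -1.30 and -0.99 on the saline arrays. The count was 3 without LPS replicate 1, LPS replicate 2 or LPS replicate 3 and 5 without saline replicate 1, saline replicate 2 or saline replicate 3. Cxcl3 and Cxcl5 had no saline array above the percentile of the filter, so neither was tested without an LPS array.

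CC chemokines, which draw monocytes and lymphocytes, rose in 13 of 15 cases (median 2.77; 9 without LPS replicate 1 or LPS replicate 2 and 12 without saline replicate 1, saline replicate 2 or saline replicate 3). Ccl3, a macrophage product, read 12.79, 12.90 and 12.32 with LPS, against 6.53, 6.09 and 7.68 with saline and rose by 5.90 ± 0.39. Ccl2 and Ccl7, ligands of the monocyte receptor CCR2, rose by 4.01 ± 0.31 and 3.64 ± 0.33. Ccl20, an epithelial product that draws CCR6-bearing cells, read 11.19, 10.49 and 11.76 with LPS, against 6.19, 6.56 and 6.75 with saline (4.65 ± 0.32), with LPS replicate 3 the highest array. Ccl4 rose by 3.24 ± 0.28, and Ccr1, below the 25th percentile on each saline array, by 3.17 ± 0.23. The ligands of CXCR3, which interferon gamma induces, rose in all 3 cases: Cxcl9 read 12.40, 12.64 and 11.13 with LPS, against 6.24, 6.01 and 6.27 with saline (5.88 ± 0.37), Cxcl10 rose by 5.83 ± 0.37 and Cxcl11 by 4.53 ± 0.58. LPS replicate 3 was the lowest LPS array for each. The receptor gene Cxcr3, carried by T and natural killer cells, read 7.36, 7.10 and 6.75 with LPS, against 6.59, 6.87 and 6.68 with saline and did not pass (0.35 ± 0.17). Of 13 other chemokine genes 5 rose (1 without LPS replicate 3, saline replicate 1 or saline replicate 2 and 2 without LPS replicate 1, LPS replicate 2 or saline replicate 3), among them Xcl1, of cytotoxic lymphocytes (2.29 ± 0.54), Cxcl13, which draws B cells (2.08 ± 0.50), and Ccl19, which draws T cells and dendritic cells (1.82 ± 0.36). Ccl19 read 11.01, 9.50 and 10.09 with LPS, against 8.13, 8.38 and 8.64 with saline; its other probe sets on this platform gave 1.697 to 1.866. Cx3cl1, a membrane-bound chemokine, changed by 0.58 ± 0.17 and did not pass.

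Interferon gamma-induced genes rose in all 18 of 18 tested cases (median 2.495), and type I interferon-stimulated genes in 22 of 25 (median 1.97). LPS replicate 3 was the lowest LPS array in all 18 and all 25 genes. Gbp5, a guanylate-binding protein that acts on bacteria in the cytoplasm, read 11.44, 11.83 and 10.20 with LPS, against 6.43, 6.70 and 6.06 with saline and rose by 4.76 ± 0.41. Iigp1, an immunity-related GTPase, read 11.12, 11.72 and 10.58 with LPS, against 6.62, 6.23 and 6.40 with saline (4.72 ± 0.28), Irgm1 and Gbp4 rose by 3.34 ± 0.37 and 3.34 ± 0.39, Cd274, the checkpoint ligand PD-L1, by 3.49 ± 0.35, and Ido1, which degrades tryptophan, by 3.37 ± 0.57. Among the type I targets Rsad2, the antiviral protein viperin, read 10.95, 10.98 and 8.96 with LPS, against 6.63, 6.44 and 6.02 with saline and rose by 3.93 ± 0.53. Zbp1, a sensor of unusual nucleic acids, rose by 3.36 ± 0.37, the transcription factor gene Irf7 by 3.08 ± 0.44, Ifit2 by 2.79 ± 0.47 and Oas3 by 2.73 ± 0.52. Ifit1, which binds viral RNA, read 11.14, 11.24 and 9.72 with LPS, against 7.88, 8.04 and 7.92 with saline (2.75 ± 0.38). Relative to the 6 arrays the type I list averaged 1.30, 1.53 and 0.21 with LPS, against -0.93, -0.92 and -1.19 with saline, so the groups did not overlap. The count of type I genes was 8 without LPS replicate 1 and 23 without LPS replicate 3; that of interferon gamma-induced genes was 10 without LPS replicate 1 or saline replicate 1 and 17 without LPS replicate 3. Ifnb1, which encodes interferon beta, was below the filter and was not tested, with values of 5.27, 5.01 and 5.16 with LPS, against 5.23, 4.99 and 5.21 with saline.

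Promoters of 3 of these genes are shown because they carry the motifs through which interferon signals act in textbook accounts. Cxcl10 is chr5:92348840-92349139 on the minus strand, Ifit1 chr19:34640639-34640938 on the plus strand, and Irf1, a transcription factor gene induced by interferon gamma, chr11:53769764-53770063 on the plus strand at the first of 2 annotated starts (GRCm38.p6, RefSeq; 250 bases before to 50 after the start). Capitals mark, on either strand, the NF-kB motif and the interferon-stimulated response element (ISRE, searched as GAAA, any 2 bases and GAAA) in Cxcl10, the ISRE in Ifit1 and the gamma-activated site (GAS, searched as TTCNNNGAA) in Irf1.
Cxcl10: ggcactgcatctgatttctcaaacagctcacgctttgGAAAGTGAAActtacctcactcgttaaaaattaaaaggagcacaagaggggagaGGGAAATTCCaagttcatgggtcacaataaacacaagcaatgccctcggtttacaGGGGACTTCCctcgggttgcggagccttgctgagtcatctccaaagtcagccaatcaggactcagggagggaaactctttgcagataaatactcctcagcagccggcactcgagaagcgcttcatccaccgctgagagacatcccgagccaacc
Ifit1: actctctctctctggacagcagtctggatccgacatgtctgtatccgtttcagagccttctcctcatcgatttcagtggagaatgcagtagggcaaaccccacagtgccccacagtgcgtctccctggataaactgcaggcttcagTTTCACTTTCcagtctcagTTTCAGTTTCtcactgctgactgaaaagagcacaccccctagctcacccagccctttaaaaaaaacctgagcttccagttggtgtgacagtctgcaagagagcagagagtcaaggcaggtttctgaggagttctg
Irf1: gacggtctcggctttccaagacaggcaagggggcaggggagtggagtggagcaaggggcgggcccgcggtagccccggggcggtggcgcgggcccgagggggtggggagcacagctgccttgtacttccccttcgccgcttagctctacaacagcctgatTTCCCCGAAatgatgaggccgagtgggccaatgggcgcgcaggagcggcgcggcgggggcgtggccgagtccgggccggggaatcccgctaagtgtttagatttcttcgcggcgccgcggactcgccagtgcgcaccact
Cxcl10 holds an ISRE match beginning 213 bases and NF-kB matches beginning 159 and 104 bases before the start. In Ifit1 the matches begin 104 and 85 bases before it, and in Irf1 90 bases before it. The ISRE letters occur in 3.44% of all 32851 promoters, and by gene in 11.3% of risen, 2.91% of fallen and 3.61% of tested genes with a promoter, and in 9 of 18 such genes of the type I list. The GAS letters occur in 8.30% of all promoters, and by gene in 13.8% of risen, 5.57% of fallen and 8.12% of tested genes, and in 5 of 12 such genes of the interferon gamma list. Of the other promoters searched, that of Saa3 held 1 ISRE match, that of Gbp5 held 1 NF-kB, 1 ISRE and 2 GAS matches, and that of Acod1 held none of these letters. Irf1 itself read 12.002, 12.14 and 10.75 with LPS, against 9.40, 9.79 and 9.37 with saline and rose by 2.11 ± 0.36.

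Acute-phase genes rose in 10 of 13 cases (median 2.22; 5 without saline replicate 1 and 11 without saline replicate 3). Saa3, a serum amyloid made in the lung itself, read 12.24, 12.31 and 12.75 with LPS, against 6.22, 6.38 and 8.95 with saline and rose by 5.25 ± 0.69. Lcn2, which withholds iron from bacteria, read 13.43, 13.56 and 13.74 with LPS, against 10.22, 9.92 and 11.81 with saline (2.93 ± 0.46). Orm1 and Orm2, of the orosomucoid family, rose by 3.36 ± 0.66 and 4.18 ± 0.95; Orm2 read 11.85, 10.86 and 12.43 with LPS, against 6.75, 6.04 and 9.82 with saline. For each of these 4 genes saline replicate 3 was the highest saline array and LPS replicate 3 the highest LPS array, the reverse of the interferon genes on LPS replicate 3. Cfb, the complement factor B gene, read 11.97, 11.67 and 11.49 with LPS, against 9.22, 9.46 and 9.40 with saline (2.35 ± 0.14), and Steap4, a metalloreductase, rose by 2.26 ± 0.21. Saline replicate 3 was also the array with the highest summed airway secretory genes (106000) and ciliated genes, which summed to 13890, 7674 and 13960 with LPS, against 15230, 12600 and 23300 with saline; their part in its acute-phase values was not tested.

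Markers of neutrophils rose in 13 of 16 tested cases (median 2.88, with 7 rises without LPS replicate 1 or LPS replicate 2 and 13 without saline replicate 1, saline replicate 2 or saline replicate 3). Among the 13, Clec4d, Il1r2, Ly6g, Mmp8, Ngp and Trem1 had no saline array above the percentile of the filter. They were tested only because they were high with LPS, and were not tested without an LPS array. S100a8 and S100a9, the calprotectin subunits, read 10.57, 10.93 and 10.06 with LPS, against 6.26, 6.87 and 5.57 with saline for the first and 11.46, 11.64 and 10.9999 with LPS, against 7.42, 7.90 and 6.60 with saline for the second, rises of 4.28 ± 0.35 and 4.06 ± 0.33. Trem1, a receptor that amplifies inflammation, rose by 3.80 ± 0.24. Ly6g, the antigen that defines mouse neutrophils, read 7.82, 8.34 and 7.12 with LPS, against 5.06, 5.11 and 5.04 with saline, below the 25th percentile with saline, and Mmp8, the neutrophil collagenase, read 7.52, 8.78 and 7.29 with LPS, against 4.69, 4.85 and 4.46 with saline. The precursor genes Elane and Mpo were below the filter; Mpo read 5.74, 5.62 and 5.77 with LPS, against 5.91, 5.63 and 5.64 with saline and Elane 5.87, 5.91 and 6.09 with LPS, against 5.91, 6.01 and 5.79 with saline. The granule gene Camp, a defining marker chosen after its values were seen, changed by 0.11 ± 0.10 and did not pass. Summed over the 18 genes with a probe set, neutrophil markers reached 18950, 18470 and 13390 with LPS, against 3347, 2898 and 3656 with saline.

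Monocyte and recruited macrophage markers rose in 10 of 18 cases (7 without LPS replicate 1 or saline replicate 1 and 11 without LPS replicate 3) and alveolar macrophage markers in 2 of 13 (15.4%). Of all tested genes 6.89% rose. Ms4a4c, of the membrane-spanning 4A family, read 10.15, 10.39 and 8.71 with LPS, against 6.49, 6.19 and 6.03 with saline (3.51 ± 0.42). Plac8, high in inflammatory monocytes, rose by 2.76 ± 0.39, Fcgr4, a receptor for IgG, by 2.91 ± 0.61, Ms4a6c by 2.81 ± 0.29, and Adgre1, the F4/80 antigen, by 2.02 ± 0.20. Ccr2, the receptor that brings monocytes from the marrow, a defining marker chosen after its values were seen, rose by 1.78 ± 0.19. The genes of resident alveolar macrophages were mixed. Marco, a scavenger receptor, rose by 0.95 ± 0.14 and the integrin Itgax by 1.35 ± 0.17, whereas Mrc1, the mannose receptor, read 8.01, 8.88 and 8.10 with LPS, against 9.22, 9.03 and 8.70 with saline and did not pass (-0.66 ± 0.25). The defining marker Siglecf read 6.99, 7.08 and 6.98 with LPS, against 7.39, 7.25 and 6.72 with saline (-0.10 ± 0.17), with overlapping groups, and the list median was 0.04. Msr1, another scavenger receptor, listed under lipid metabolism, read 9.69, 9.86 and 9.52 with LPS, against 6.28, 6.40 and 6.56 with saline (3.28 ± 0.12), with little spread in either group. It was 1 of 3 risen genes among 20 of lipid and cholesterol metabolism, with Olr1, the receptor for oxidised LDL (2.15 ± 0.29), and the fatty acid carrier Fabp5 (0.83 ± 0.19).

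Lymphocyte genes were read against room air alone as well, to set the saline arrays beside lungs that had no instillation. A pair of AKR arrays of lungs with 3 weeks of room air and no instillation (n = 2) served for this and entered no fit. Natural killer and cytotoxic markers rose in 9 of 12 tested cases (median 1.58), T cell markers in 3 of 14, regulatory T cell markers in 4 of 7 and B cell markers in 2 of 16 (12.5%). Of all tested genes 6.89% rose. Gzmb, Ifng, Klrd1, Txk, Cd28, Il2ra and, in the thymocyte and dendritic cell lists below, Ccr9 and Ccl22 had no saline array above the percentile of the filter. They were tested only because they were high with LPS. Of 20 natural killer genes with a probe set, 12 were tested. Gzmb, the cytotoxic protease granzyme B, read 8.75, 9.20 and 7.08 with LPS, against 6.13, 6.08 and 5.54 with saline (2.43 ± 0.52), and Nkg7, of cytotoxic granules, read 9.11, 9.52 and 8.25 with LPS, against 7.02, 6.77 and 6.52 with saline (2.19 ± 0.32). Relative to the mean of the 8 arrays the natural killer list averaged 1.16, 1.39 and 0.11 with LPS, against -0.74, -0.77 and -1.13 with saline and -0.19 and 0.15 with room air alone. Every LPS array was above every saline and room air array for 4 of its 12 genes; the median difference was 1.58 from saline and 0.50 from room air alone.

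T cell markers averaged 0.56, 0.24 and -0.10 with LPS, against -0.27, -0.37 and -0.35 with saline and 0.12 and 0.17 with room air alone, so LPS replicate 3 was below both room air arrays. None of the 14 genes had every LPS array above every saline and room air array, and the median difference was 0.50 from saline and 0.08 from room air alone. Cd3g, of the T cell receptor complex, rose against saline by 1.10 ± 0.24 and Cd28, a costimulatory receptor, by 0.77 ± 0.16, and Il7r, the IL-7 receptor, by 1.09 ± 0.23. The B cell genes Cd79a and Ms4a1 (CD20) were highest on LPS replicate 1 and did not pass. Ms4a1 read 8.55, 6.93 and 6.83 with LPS, against 6.57, 6.44 and 6.89 with saline and 7.46 and 7.73 with room air alone, and Cd79a read 8.95, 7.45 and 7.95 with LPS, against 7.33, 7.08 and 7.56 with saline and 8.09 and 8.43 with room air alone. In both genes LPS replicates 2 and 3 were below the room air arrays. B cell markers lay 0.56 above saline and 0.09 below room air alone in the median, and Fcer2a, the low-affinity IgE receptor, read 8.81, 9.01 and 9.30 with LPS, against 6.73, 5.96 and 6.85 with saline. It and the transcription factor gene Spib (1.09 ± 0.24) were the 2 risen B cell genes, and both had every LPS array above saline and room air. Foxp3, the factor that defines regulatory T cells, read 7.28, 7.20 and 7.10 with LPS, against 6.71, 6.56 and 6.85 with saline (0.49 ± 0.11). It rose with Il2ra, a chain of the IL-2 receptor (1.63 ± 0.33), Tnfrsf18 (0.97 ± 0.21) and Tigit (0.47 ± 0.08), and all 4 were above saline and room air on every LPS array. Over all 79 tested genes of the lymphocyte, antigen-presentation and dendritic cell lists, 21 were above all saline and room air arrays, where 10.4% of all tested genes were, and 32 had passed against saline. With 1 array left out the natural killer count was 2 without LPS replicate 1 or LPS replicate 2 and 6 without LPS replicate 3, the T cell count 0 without any 1 of 5 arrays and 8 without LPS replicate 3, the regulatory T cell count 0 without LPS replicate 1, saline replicate 1 or saline replicate 2 and 2 without LPS replicate 3 or saline replicate 3 and the B cell count 1 without any 1 of 4 arrays and 2 without LPS replicate 1 or LPS replicate 3. Of 6 tested thymocyte genes Ccr9, a homing receptor (1.25 ± 0.29), and Cd1d1, which presents lipids (0.77 ± 0.19), rose (0 without any 1 of 5 arrays and 3 without LPS replicate 3); the immature T cell genes Rag1 and Dntt were below the filter and Ptcra read 6.40, 6.24 and 6.41 with LPS, against 6.52, 6.38 and 6.43 with saline.

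**Figure D3:**
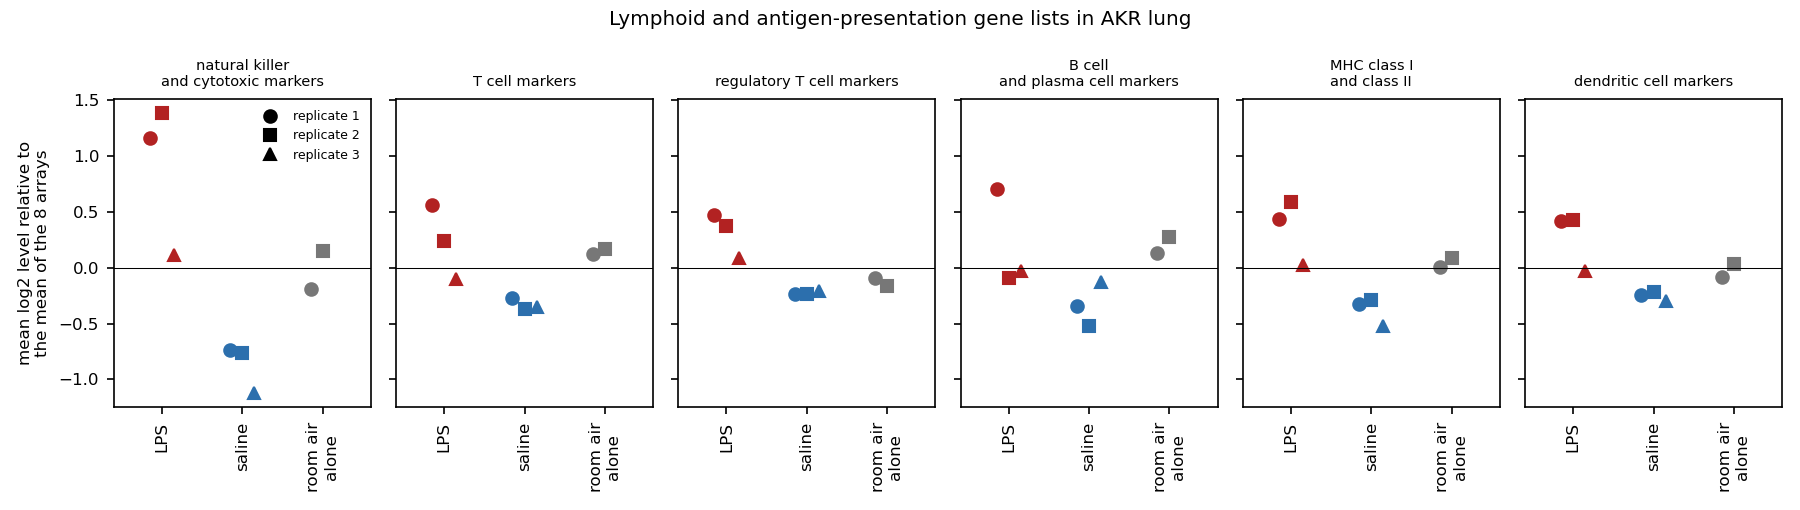
Mean log2 level of 6 lymphoid and antigen-presentation gene lists on AKR arrays with LPS (red), with saline (blue) and with room air alone (grey), relative to the mean of the 8 arrays, a symbol per replicate. Room air alone lies above saline in every list, and for T cell markers LPS replicate 3 lies below both room air arrays.

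Of 11 class I and II genes of the major histocompatibility complex pathway 6 rose (0 without saline replicate 1 and 9 without LPS replicate 3), and 3 were above saline and room air on every LPS array. H2-Q4, a class I gene, read 11.29, 11.51 and 10.69 with LPS, against 9.95, 10.27 and 9.41 with saline (1.29 ± 0.28), B2m, the class I light chain, rose by 0.70 ± 0.10 and H2-Ab1, a class II chain, by 0.69 ± 0.16. Class I genes of this family resemble each other, so probe signals may be shared. Dendritic cell markers rose in 6 of 15 cases (2 without LPS replicate 1 or saline replicate 1 and 6 without LPS replicate 3), among them genes of mature, migrating cells: Ccl22 (2.77 ± 0.25), Ccl17 (2.04 ± 0.24), the actin-bundling Fscn1 (1.32 ± 0.22) and the homing receptor Ccr7 (0.99 ± 0.20). Of the 6 risen genes 4 were above saline and room air on every LPS array, Ccl22, Ccl17 and Fscn1 among them. Ccr7 was not: it read 9.27, 8.67 and 8.65 with LPS, against 8.02, 8.01 and 7.603 with saline and 8.80 and 8.79 with room air alone, a mean difference of 0.07 from room air. Clec9a, a defining marker of resting type 1 dendritic cells chosen after its values were seen, read 7.21, 7.22 and 6.48 with LPS, against 7.48, 7.597 and 7.502 with saline and did not pass.

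Some genes of macrophage effector enzymes and of cell death rose. In the list of itaconate, arginine and prostaglandin enzymes 11 of 20 rose (6 without LPS replicate 1 or saline replicate 1 and 13 without LPS replicate 3). Beside Acod1 they included Ch25h, which makes 25-hydroxycholesterol (3.10 ± 0.22), Arg2, the mitochondrial arginase (2.65 ± 0.17), Ptges, which makes prostaglandin E2 (2.16 ± 0.19), and Nampt, of NAD synthesis (1.699 ± 0.33). Nos2, the inducible nitric oxide synthase, read 9.56, 9.36 and 7.27 with LPS, against 6.63, 6.54 and 6.25 with saline. LPS replicates 1 and 2 stood far above LPS replicate 3, as with Ifng, and it did not pass (2.26 ± 0.57, adjusted p = 0.0512). Inflammasome genes rose in 9 of 12 cases (3 without LPS replicate 1 and 8 without saline replicate 2 or saline replicate 3), with the sensor Nlrp3 at 10.02, 10.04 and 9.07 with LPS, against 5.73, 5.88 and 5.42 with saline (4.03 ± 0.28), the pyrin gene Mefv at 3.16 ± 0.31 and Casp4, the mouse gene for the caspase that binds LPS in the cytoplasm, at 1.99 ± 0.23. Of 13 cell death genes 6 rose (3 without saline replicate 1 and 8 without LPS replicate 3), led by Mlkl, the effector of necroptosis (1.88 ± 0.28), Gadd45b (1.31 ± 0.20) and the death receptor Fas (1.11 ± 0.14). None of 16 cell cycle genes passed (median 0.03); Mki67, the proliferation marker, read 7.99, 8.12 and 7.19 with LPS, against 6.77, 7.15 and 7.68 with saline.

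Leukocyte adhesion and migration genes rose in 12 of 18 cases: the receptor for platelet-activating factor Ptafr by 3.50 ± 0.27, the protease inhibitor Timp1 by 3.35 ± 0.24, the leukocyte integrin chains Itgam and Itgal by 2.68 ± 0.14 and 1.74 ± 0.24, and Selplg, the selectin ligand, by 1.74 ± 0.18. On the endothelial side 5 of 16 rose (1 without LPS replicate 1 or saline replicate 1 and 5 without LPS replicate 3). Sele, the endothelial selectin, read 7.79, 8.52 and 7.82 with LPS, against 6.25, 7.07 and 6.08 with saline (1.57 ± 0.30), Icam1 rose by 1.27 ± 0.20, Vcam1 by 1.03 ± 0.19 and the protease gene Adamts4 by 1.82 ± 0.21. Genes that mark endothelium itself did not pass in any of 20 cases (median -0.22); Kdr, the VEGF receptor, read 10.31, 10.69 and 10.50 with LPS, against 11.12, 11.30 and 10.68 with saline, lowest on saline replicate 3 among the saline arrays. Complement genes rose in 7 of 15 cases, among them the anaphylatoxin receptors C5ar1 (2.06 ± 0.24) and C3ar1 (1.81 ± 0.15). Coagulation genes rose in 5 of 16 (1 without LPS replicate 2 or saline replicate 1 and 5 without LPS replicate 3), with factor X (F10) at 9.68, 9.999 and 9.09 with LPS, against 7.42, 7.28 and 6.95 with saline (2.37 ± 0.24), the urokinase receptor Plaur at 1.43 ± 0.27 and Procr, the protein C receptor, at 1.26 ± 0.23; Thbd, thrombomodulin, read 10.53, 11.28 and 10.55 with LPS, against 11.76, 11.91 and 10.89 with saline and did not pass.

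Slc7a11, the cystine importer, read 10.90, 10.55 and 10.14 with LPS, against 6.73, 7.05 and 7.64 with saline (3.39 ± 0.27) and Hmox1, heme oxygenase, read 10.55, 10.14 and 10.13 with LPS, against 8.70, 8.74 and 8.77 with saline (1.54 ± 0.13). They were the 2 risen genes among 18 NRF2 targets (11.1%), where 6.89% of all tested genes rose and 3.73% fell. In this list 3 fell: Gsta3 (-1.02 ± 0.11) and Gstm1 (-0.91 ± 0.13), of glutathione conjugation, and Cat, catalase (-0.77 ± 0.09). Nqo1, a quinone reductase often used as an NRF2 readout, read 6.77, 6.24 and 6.45 with LPS, against 6.999, 6.85 and 7.30 with saline and did not pass. Metal, iron and hypoxia genes rose in 8 of 19 cases (4 without LPS replicate 1, LPS replicate 2 or saline replicate 1 and 7 without LPS replicate 3 or saline replicate 3): metallothionein Mt2 by 1.58 ± 0.22, the zinc importer Slc39a14 by 1.43 ± 0.09, Hif1a by 1.40 ± 0.16, the glycolytic regulator Pfkfb3 by 1.88 ± 0.28 and the iron exporter Slc40a1 by 1.10 ± 0.22. Slc39a14 read 9.28, 9.40 and 9.38 with LPS, against 7.89, 7.89 and 8.01 with saline, with little spread in either group. Of 19 genes of the unfolded protein and integrated stress response 8 rose (1 without LPS replicate 2 or saline replicate 1 and 5 without LPS replicate 3), by no more than 1.59 ± 0.38 (Atf3) and mostly under 1 log2 unit (Sdf2l1, 0.97 ± 0.13; Xbp1, 0.52 ± 0.09). Heat shock genes fell in 2 of 12 cases, Hsph1 (-1.44 ± 0.35) and Dnaja1 (-0.72 ± 0.17). The list median was -0.64 after air and 0.004 after smoke. Hsph1 changed by -0.01 after smoke, and its difference between air and smoke did not pass (limma adjusted p = 0.582). Hspa1a, the inducible HSP70, read 9.40, 8.37 and 8.09 with LPS, against 9.42, 12.02 and 10.32 with saline and did not pass; saline replicate 1 was level with LPS replicate 1, and the high values were those of saline replicates 2 and 3. Without saline replicate 1 the list's count of falls was 6, and without any 1 of the other 5 arrays it was 0.

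None of 14 alveolar type 1 markers passed (median -0.12). Among 18 type 2 markers Chil1, a chitinase-like protein, rose by 2.38 ± 0.39 (13.58, 13.70 and 13.66 with LPS, against 11.07, 10.52 and 12.21 with saline), Sftpd, the surfactant collectin, by 0.63 ± 0.14, and the lung transcription factor gene Nkx2-1 fell (9.64, 9.43 and 9.47 with LPS, against 10.25, 10.10 and 10.13 with saline; -0.65 ± 0.10). The 2 rises were 11.1% of the list, where 6.89% of all tested genes rose and 3.73% fell. Without 1 array the 2 rises became 0 without LPS replicate 1 or saline replicate 1 and 1 without any 1 of 4 arrays, and no type 2 marker fell without saline replicate 1. Sftpc, the defining surfactant gene, chosen after its values were seen, read 13.08, 13.62 and 13.09 with LPS, against 13.74, 13.75 and 13.43 with saline and did not pass. In ion and water transport Slc26a4, the anion exchanger pendrin, read 9.36, 9.53 and 9.75 with LPS, against 6.57, 6.45 and 6.58 with saline and rose by 3.02 ± 0.12. Kcnip4, which modulates potassium channels, had the largest fall among genes that passed. It read 5.82, 5.58 and 5.38 with LPS, against 7.32, 7.70 and 7.87 with saline (-2.04 ± 0.17). No LPS array of Kcnip4 was above the percentile of the filter (6.24 to 6.27). It was tested only because it was high with saline, and was not tested without a saline array. Kcnk3, a leak potassium channel, fell too (-0.49 ± 0.12). The count of falls in this list was 0 without saline replicate 1, saline replicate 2 or saline replicate 3 and 2 without LPS replicate 2 or LPS replicate 3.

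Airway markers spread widely within the groups. Among 18 airway secretory genes Reg3g, an antibacterial lectin, read 12.29, 9.43 and 10.28 with LPS, against 8.77, 4.90 and 10.21 with saline, and Muc5b, the airway mucin, read 12.17, 9.78 and 11.03 with LPS, against 10.25, 6.74 and 11.03 with saline. In both the groups overlapped and saline replicate 2 was far below the other saline arrays. Pigr, the receptor that carries IgA across epithelium, read 11.94, 11.48 and 12.41 with LPS, against 9.98, 9.58 and 11.35 with saline (1.64 ± 0.46, adjusted p = 0.0724), and Retnla, a resistin-like protein, 12.73, 12.66 and 13.18 with LPS, against 10.05, 9.53 and 12.48 with saline; neither passed. Sec14l3, a lipid-binding protein of airway cells named after its values were seen, alone passed and read 11.51, 11.38 and 11.20 with LPS, against 12.33, 12.24 and 12.64 with saline (-1.04 ± 0.14); without saline replicate 3, 2 further genes of the list rose. None of 20 ciliated cell markers passed (median -0.53), and LPS replicate 2 was the lowest LPS array in all 20. No member passed among the tested mesothelial (7), adipocyte (6), erythroid and platelet (7) and mast cell, basophil and eosinophil (2) markers.

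Of 22 fibroblast and smooth muscle markers 4 fell and none rose (median -0.58). Of 23 matrix genes 4 fell and 1 rose (4.35%), where 3.73% of all tested genes fell and 6.89% rose. Col14a1, a collagen of adventitial fibroblasts, read 8.30, 7.61 and 8.06 with LPS, against 9.24, 9.21 and 9.30 with saline (-1.26 ± 0.17) and Dpt, dermatopontin, read 9.11, 9.01 and 9.19 with LPS, against 10.31, 9.94 and 10.54 with saline (-1.16 ± 0.16). Ogn, osteoglycin, read 10.07, 10.58 and 9.88 with LPS, against 11.21, 11.22 and 11.22 with saline (-1.04 ± 0.18), and Col1a2, a chain of type I collagen, fell by 0.71 on the log2 scale. Tnc, the matrix protein of injured tissue, read 9.76, 9.83 and 9.28 with LPS, against 8.25, 8.01 and 8.12 with saline (1.498 ± 0.16). Cnn1, the smooth muscle calponin, did not pass and read 10.72, 9.07 and 10.69 with LPS, against 11.27, 10.84 and 11.80 with saline, lowest on LPS replicate 2 and highest on saline replicate 3. The fibroblast count was 2 without saline replicate 1 and 5 without saline replicate 3 and the matrix count 0 without LPS replicate 1 or saline replicate 1 and 4 without LPS replicate 3. With saline replicate 3 and LPS replicate 2 left out, the counts of falls were 10 of the fibroblast and 5 of the matrix genes. Saline replicate 2, the lowest array in the mean of the airway secretory list, stayed in. Among 23 WNT, BMP and growth factor genes Inhba, which encodes activin A, rose by 2.28 ± 0.26, the only rise (4.35%). The receptor gene Fgfr3 (-1.02 ± 0.09), Gas1 (-0.82 ± 0.14) and Wnt5a (-0.47 ± 0.12, chosen after its values were seen) fell. Fgfr3 read 9.64, 9.62 and 9.71 with LPS, against 10.61, 10.79 and 10.62 with saline, with little spread in either group. The falls in this list were 1 without LPS replicate 1, saline replicate 1 or saline replicate 2 and 5 without saline replicate 3.

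Of 21 tested genes of cytochrome P450 and detoxifying enzymes 9 fell and none rose (median -0.83; 3 without saline replicate 1 and 10 without LPS replicate 2). Ces1g and Ces1f, carboxylesterases that cleave esters of drugs and lipids, read 6.13, 5.83 and 5.79 with LPS, against 7.62, 7.89 and 7.43 with saline for Ces1g and 6.20, 5.83 and 5.79 with LPS, against 7.61, 7.30 and 7.53 with saline for Ces1f, changes of -1.73 ± 0.15 and -1.54 ± 0.14. Neither had an LPS array above the percentile of the filter, so both were tested only because they were high with saline. Aox3, an aldehyde oxidase, read 9.39, 8.77 and 8.94 with LPS, against 10.73, 10.40 and 10.96 with saline (-1.66 ± 0.20), and Pon1, paraoxonase, read 10.50, 9.50 and 10.25 with LPS, against 11.56, 11.54 and 12.06 with saline (-1.64 ± 0.27). Carboxylesterase genes resemble one another in sequence, and a probe set may read more than one. Cyp2e1 read 6.36, 6.08 and 6.08 with LPS, against 9.39, 6.09 and 8.08 with saline: with saline it was high on replicates 1 and 3 only, as were the adipocyte genes Car3 (9.22, 5.46 and 6.19 with LPS, against 11.58, 5.77 and 10.63 with saline) and Plin1 (6.97, 6.35 and 6.62 with LPS, against 8.05, 6.35 and 6.92 with saline), and none of these passed. Among the other largest falls that passed were Dner, a Notch ligand (-1.57 ± 0.22), Npr3, the clearance receptor of natriuretic peptides (-1.57 ± 0.36), the tight junction gene Cldn8 (-1.53 ± 0.27), Cyp4f15 (-1.41 ± 0.29), the potassium channel gene Kcnj13 (-1.39 ± 0.25) and 1810010H24Rik (-1.45 ± 0.20).

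Circadian clock genes fell in 8 of 17 cases and rose in 2 (11.8%). Of all tested genes 3.73% fell and 6.89% rose. Dbp, an output transcription factor of the clock, read 7.93, 8.35 and 7.69 with LPS, against 9.10, 8.73 and 9.28 with saline (-1.05 ± 0.21). Nr1d1, the repressor REV-ERB alpha, read 10.63, 10.87 and 10.62 with LPS, against 11.78, 11.47 and 11.71 with saline (-0.94 ± 0.12), and the period genes Per3 and Per2 fell too (-0.82 ± 0.13 and -0.72 ± 0.16). Nfil3, the repressor that opposes Dbp at shared sites, rose by 1.34 ± 0.11 (8.86, 8.66 and 8.65 with LPS, against 7.29, 7.54 and 7.33 with saline), and Bhlhe40, another repressor of clock targets, by 0.90 ± 0.16. The core gene Arntl, chosen after its values were seen, read 7.64, 7.67 and 7.80 with LPS, against 7.54, 8.03 and 7.71 with saline and did not pass. The count of falls was 1 without saline replicate 1 and 6 without LPS replicate 2. Glucocorticoid-induced genes rose in 2 of 14 cases (14.3%), both metallothioneins. Fkbp5, a sensitive target, read 8.27, 8.85 and 7.89 with LPS, against 7.73, 7.80 and 7.63 with saline and did not pass.

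**Figure D4:**
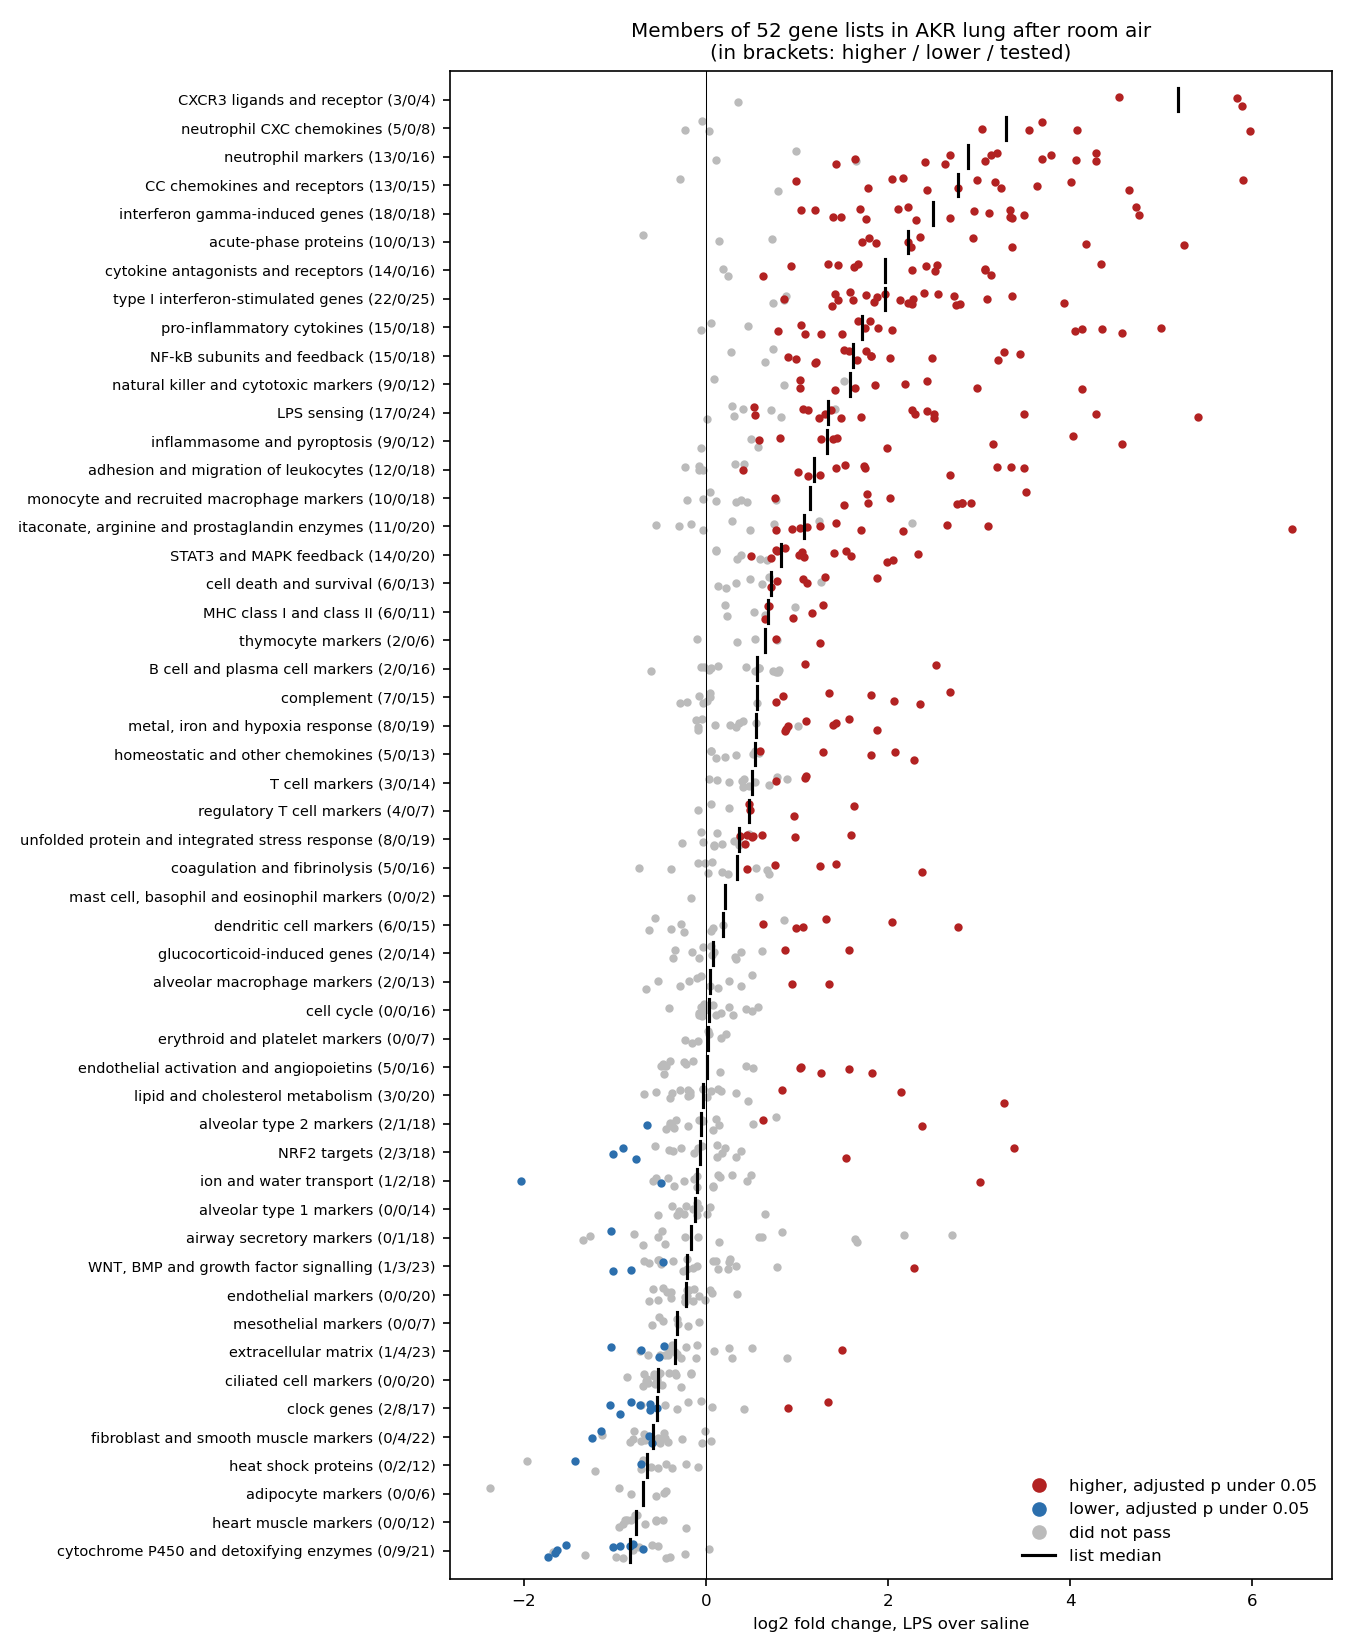
log2 fold change of LPS over saline for every tested member of the 52 gene lists, ordered by list median (black bar), with members that passed in red (higher) or blue (lower) and the others in grey. Chemokine, interferon and neutrophil lists lie at the top, and detoxifying enzymes, fibroblast markers and clock genes near the bottom, beside heart, adipocyte and ciliated lists in which no member passed.

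3 microRNA genes of inflammation, chosen after their values were seen, are shown with the mature RNAs their hairpins give, since the arrays read the primary transcript or hairpin and not the mature RNA. Of 272 miRNA probe sets 80 were tested, 2 rose and none fell. Mir155, induced by TLR signals in myeloid cells (chromosome 16), read 8.29, 8.04 and 7.38 with LPS, against 6.21, 6.06 and 6.01 with saline and rose by 1.81 ± 0.23 (adjusted p = 0.00498). Its saline values lay below the percentile of the filter on those arrays (6.25, 6.23 and 6.21). Mir155 was thus tested only because it was high with LPS. Mir142, expressed in blood cells (chromosome 11), read 7.93, 8.22 and 7.90 with LPS, against 6.61, 6.45 and 6.34 with saline and rose by 1.55 ± 0.13 (adjusted p = 0.00105). Mir146, which lowers TLR signalling (chromosome 11), read 4.37, 4.33 and 4.77 with LPS, against 2.997, 2.99 and 2.85 with saline, below the filter and below the 25th percentile of each array's probe sets (5.29 to 5.35), so it was not tested and no fold is given. No LPS array overlapped a saline array in any of the 3. The mature sequences are RefSeq's (GRCm38.p6), with the seed (bases 2 to 8, which pair with target mRNAs) in capitals. The arms of miR-155 lie at chr16:84714143-84714165 and chr16:84714182-84714202 and those of miR-142a at chr11:87756867-87756887 and chr11:87756903-87756925, all on the plus strand. Those of miR-146a lie at chr11:43374435-43374456 and chr11:43374399-43374420 on the minus strand, each pair with the 5p arm first.
mmu-miR-155-5p: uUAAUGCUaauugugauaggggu
mmu-miR-155-3p: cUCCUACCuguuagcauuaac
mmu-miR-142a-5p: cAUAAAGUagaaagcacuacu
mmu-miR-142a-3p: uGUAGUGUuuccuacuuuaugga
mmu-miR-146a-5p: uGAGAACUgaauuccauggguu
mmu-miR-146a-3p: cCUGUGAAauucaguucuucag
No 2 of these 6 RNAs share a seed.

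AKR lungs given LPS after cigarette smoke (2 arrays) and saline after smoke (3 arrays), males of the same labelled age and titled exposure, share no array with the air comparison, and were used to ask which responses differ. The difference of both responses was tested in 1 limma fit of the 11 instilled AKR arrays over 14138 genes. It passed for 3 genes (0.0212%), and for 1040 at an unadjusted p under 0.05. All 3 responded less after air. Thbs1, the matrix protein thrombospondin 1, read 11.87, 11.88 and 11.93 with LPS, against 11.38, 11.58 and 11.38 with saline after air, and 12.63 and 12.62 with LPS, against 10.83, 10.64 and 10.59 with saline after smoke. Its change was 0.45 after air and 1.94 after smoke, a difference of -1.49 ± 0.13 (limma adjusted p = 0.00496). Hal, histidine ammonia lyase, changed by 1.25 after air and 2.68 after smoke (-1.43 ± 0.13, adjusted p = 0.00496), and Slc16a6, a monocarboxylate transporter, by 1.32 and 2.54 (-1.23 ± 0.14, adjusted p = 0.0277). These genes were named after their values were seen. Without either smoke LPS array none passed; 6 passed without smoke saline replicate 3 and 5 without air LPS replicate 2 or 3. None passed with the replicate number as a block.

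Signs were compared for the genes that passed after air, the 3 above included. Of the 950 genes that rose after air, 945 had a positive change after smoke, 859 of them passing there, and of the 514 that fell, 510 had a negative one, 446 of them passing. These genes were picked by the air comparison, and 29.5% of all genes passed after smoke in the fit of 11 arrays. The median change of the risen genes was 1.11 after air and 1.33 after smoke, and that of the fallen genes -0.62 after air and -0.71 after smoke. The type I interferon list had a median of 1.97 after air and 1.42 after smoke, and Ifng, at 4.13 ± 1.02 after air, changed by 2.19 after smoke; none of their differences passed.

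**Figure D5:**
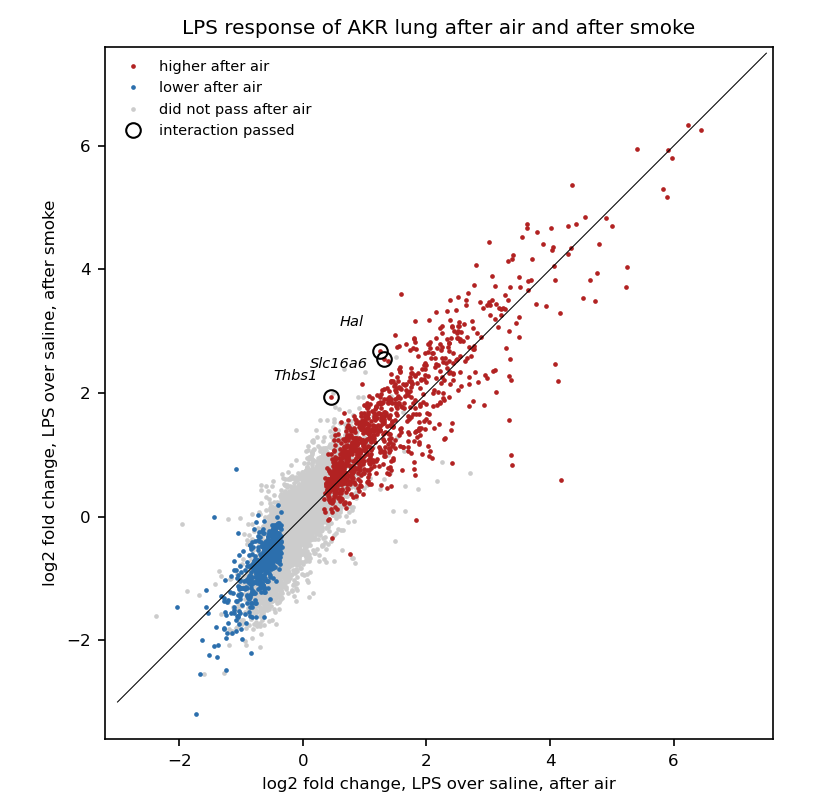
log2 fold change of LPS over saline after air (6-array fit, horizontal axis) and after smoke (vertical axis) for each gene, red and blue where the gene rose or fell after air, with a line of equality. The 3 circled genes, Thbs1, Hal and Slc16a6, passed the test of the difference and lie above the line.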

How the data were processed

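RNA of homogenised lung was hybridised to 1-colour gene arrays. The deposited values are log2 intensities per probe set, normalized by the authors with RMA per the submitters' processing notes, which give no version; scanner files, slide and scan date were not used here. The medians of the 6 arrays lay between 6.85 and 6.88. Of 35556 probe sets, 21789 have 1 gene symbol in the platform annotation, 1621 several and 12146 are not listed in it. Of the 21789 probe sets with 1 symbol, 99.6% matched RefSeq by Entrez ID. For each of 19938 genes the brightest probe set over the 6 arrays was kept, and genes over the 40th percentile of the array on 3 or more of the 6 were tested with limma 3.58.1 in R 4.3.3 (moderated test, two-sided, 6.89 degrees of freedom, Benjamini-Hochberg adjustment over all 13794 tested genes, adjusted p under 0.05). The smoke comparison was a fit of the 11 instilled AKR arrays. Figures were drawn with matplotlib 3.10.9 and sequences read with pandas 2.3.3 in Python 3.11.15.

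The fit was tested on simulated data in which 200 of 13794 genes were changed, by 1 or 2 log2 units. It recovered 73% of those changed by 1 and 95% of those changed by 2. Of the genes that passed there, 6.15% had not been changed. The simulated noise was independent between genes, without the shifts that many genes share on an array here, and fewer genes were changed than passed here. These rates need not hold for the measured data. Genes are named by a rule: the 12 largest rises and falls among genes that passed, the 6 most changed members per list, and defining markers with their array values; other named genes are said to be chosen after their values were seen. The members, lists and tests were chosen with earlier results of these data known. Alternatives were the 11-array fit, the replicate number as a block, filters, normalizations, the mean of probe sets, variance models, thresholds and leaving out each array.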

Additional observations from a re-analysis of the deposited data

Results flagged for a closer look

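Probe sets with no single gene symbol were kept out of the gene comparison, and some responded to LPS. Of 6410 tested, 144 passed in limma (2.25%), 125 higher and 19 lower. Among them were 100 of the 5488 tested probe sets the annotation does not list and 44 of the 922 with several symbols. Probe set 10608681 read 9.56, 10.38 and 9.09 with LPS, against 5.62, 5.42 and 5.44 with saline, a log2 fold change of 4.18 ± 0.30. It had no saline array above the percentile of the filter and was tested only because it was high with LPS. Probe set 10608646 read 9.83, 10.10 and 9.22 with LPS, against 6.36, 6.22 and 5.94 with saline, a change of 3.55 ± 0.24. Probe set 10359593 was lower, with 10.39, 8.99 and 9.55 with LPS, against 11.42, 11.23 and 11.90 with saline, a change of -1.88 ± 0.35. Probe set 10494643 read 8.28, 8.02 and 8.50 with LPS, against 9.49, 9.48 and 9.66 with saline, a change of -1.28 ± 0.15. None of these 4 has overlapping groups, and none is named here. Without LPS replicate 1 the count was 8, and without LPS replicate 3 it was 245.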

How the results depend on the processing

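Among the 302 named genes, none that passed in either of the fits compared changed sign under any alternative run. Of the 190 that passed, 105 did so under every alternative in which they were tested. Up to 18 alternatives applied to a gene, but some genes were left out of several by the filter on dim genes. Clec4e, for example, was tested in 14 and Kcnip4 in 13. The 1464 genes became 2395 when the 11 instilled arrays shared the spread (1435 shared), 4097 with array weights, 467 at an adjusted p under 0.01 and 303 with treat against a log2 fold of 0.5. The 950 rises became 1768, 384 and 287 under the last 3 of these, and the 514 falls 1054, 2329, 83 and 16 under all 4. With an array left out the total ran from 488 (saline replicate 1) to 1200 (LPS replicate 3), the rises from 392 (LPS replicate 1) to 897 and the falls from 89 (saline replicate 1) to 372. Every array but saline replicate 3 moved one of these counts by over 1.5 times when left out. Without saline replicate 3 and LPS replicate 2, a choice made after seeing the data, 624 genes rose. No filter, a filter at the 60th percentile, renewed quantile normalization, median centring, the mean of probe sets and a trended variance kept the total between 1288 and 1635. The cause of these differences was not tested.

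The replicate number as a block gave 2086 genes, 925 of them lower (466 of the 514 shared), 0 genes in the smoke comparison and 157 unnamed probe sets. Same-numbered arrays deviated together with correlations of -0.0582, 0.554 and 0.289, and 3 of 6 arrays correlated best with their own number, so they are not taken as pairs. The 3 genes of the smoke comparison ran from 0 to 6 with an array left out (0 without smoke LPS replicate 1 or 2, 6 without smoke saline replicate 3, 5 without air LPS replicate 2 or 3). The 144 unnamed probe sets ran from 8 to 245, and were 36 with no filter; every array moved this count by over 1.5 times. The lymphocyte count of 21 of 79 was 23 of 98 with no filter. Of the 190 named genes that passed, 187 were tested without saline replicate 1 and 72 of these no longer passed. Only 164 were tested without LPS replicate 3, and 16 of these no longer passed.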

Other observations

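Most of the genes that passed lie outside the gene lists, 682 that rose and 477 that fell. Those named next were chosen after their values were seen. Several that rose encode receptors of myeloid cells. Gpr84, a receptor for medium-chain fatty acids, read 9.55, 9.76 and 8.58 with LPS, against 5.47, 5.81 and 5.71 with saline (3.63 ± 0.30). Hcar2, the niacin receptor, rose by 3.77 ± 0.37, and the receptors Lilr4b and Siglece rose by 3.65 ± 0.11 and 3.39 ± 0.19. Aoah, the enzyme that removes acyl chains from LPS, read 8.76, 8.995 and 8.27 with LPS, against 5.55, 5.82 and 5.596 with saline (3.02 ± 0.19). Gpr84 and Aoah had no saline array above the percentile of the filter and were tested only because they were high with LPS. Slfn4, a schlafen family gene, read 12.51, 11.97 and 11.42 with LPS, against 7.32, 8.06 and 7.29 with saline (4.41 ± 0.32), again lowest on LPS replicate 3 among the LPS arrays, and Gm12250, an immunity-related GTPase gene, rose by 4.15 ± 0.48. Cd69, an early activation marker of lymphocytes, rose by 3.03 ± 0.52, and the signalling genes Ikbke and Malt1 by 2.54 ± 0.18 and 2.42 ± 0.16.

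Genes that fell outside the lists included more secreted and matrix proteins. Aspn, asporin, read 8.21, 8.18 and 8.52 with LPS, against 9.39, 9.47 and 9.78 with saline (-1.24 ± 0.15), Mamdc2 8.32, 8.78 and 8.30 with LPS, against 9.93, 9.86 and 9.44 with saline (-1.28 ± 0.18) and Pamr1 7.79, 7.77 and 7.86 with LPS, against 9.03, 9.27 and 8.94 with saline (-1.27 ± 0.11). Clec3b, tetranectin, fell as well (-1.14 ± 0.11), as did Igfbp3, which binds insulin-like growth factors (-1.09 ± 0.26). After smoke Clec3b changed by -1.24, but Igfbp3 had the opposite sign (0.77), and its difference between air and smoke did not pass. The epoxide hydrolase gene Ephx1 read 10.14, 9.50 and 10.22 with LPS, against 11.11, 10.91 and 11.50 with saline (-1.22 ± 0.23) and Ces1e, another carboxylesterase, 6.39, 5.99 and 6.29 with LPS, against 7.46, 7.34 and 7.68 with saline (-1.27 ± 0.14). Elf5, an epithelial transcription factor gene, fell too (-1.09 ± 0.21).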
